A study of Mus musculus with 4 samples.

Results

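A set of 8 genes was followed through the 4 single-cell libraries of this study. They encode proteins of lipid droplets and of the synthesis of fatty acids and triglycerides, and were chosen by symbol among the 31053 features of the count matrices. The droplet genes were Plin1, Plin2 and Cidec, the triglyceride gene was Dgat2, and the fatty acid genes were Fasn, Scd1, Acacb and Thrsp. All 8 were found. They were chosen by symbol and not by a rule on their measured values, but with earlier results of these data known.

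The libraries came from cells of the tibial marrow of C57Bl/6JCrl mice. Control mice were Vegfc flox/flox, with floxed alleles of a vascular growth factor gene, and Vegfc-deleted mice were RosaCreERT2;Vegfc flox/flox, which adds a tamoxifen-inducible Cre recombinase expressed from the ubiquitous Rosa26 locus. All 4 groups therefore carried the floxed alleles. Tamoxifen was given by gavage at 7 to 8 weeks of age, to both genotypes in one place of the labels and to part of the samples in another. Irradiated mice received 4 Gy 2 weeks after tamoxifen and were sampled 7 days later. Each group was 1 library, pooled from 3 mice without and 2 mice with irradiation, although another label names 3 irradiated mice. Cells were freed with collagenase, dispase and DNase and sorted as DAPI-negative cells that lacked lineage markers as well as CD45 and Ter119. No spread between animals can be measured, so every interval below is a 95% interval for counting error only, and no p-value is given.

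White fat cells store triglyceride in a droplet coated by perilipins. Perilipin 1 guards the droplet of fat cells against lipases, perilipin 2 coats the small droplets of most cell types, and CIDEC fuses droplets into a large one. Fatty acids for the store are made by fatty acid synthase from malonyl-CoA, desaturated by stearoyl-CoA desaturase and joined to diacylglycerol by DGAT2. ACACB makes the malonyl-CoA that restrains fatty acid entry into mitochondria, and THRSP (Spot 14) is a regulator of fatty acid synthesis that responds to thyroid hormone and feeding. In marrow, LepR+ stromal cells support blood stem cells through Cxcl12 and Kitl, express Adipoq and can give rise to marrow fat cells.

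The genes lie apart in the mouse genome (GRCm38, GENCODE M21). Plin1 is at chr7:79720218-79732903, Plin2 at chr4:86648386-86670060, Cidec at chr6:113424634-113435760 and Dgat2 at chr7:99153658-99182719, all on the minus strand. Fasn is at chr11:120805846-120824547, Scd1 at chr19:44394455-44407879 and Thrsp at chr7:97412938-97417730 on the minus strand, and Acacb is at chr5:114146535-114250761 on the plus strand. Each is protein coding. Only Acacb overlapped another annotated gene, the processed pseudogene Gm13784 on the opposite strand. RefSeq promoter windows (GRCm38.p6, 250 bases before to 50 after a start site) were at hand for 6 of the 8 genes. The stretches below are the parts of 4 of those windows that lie before every annotated transcript of the gene. The genes shown are Plin1, Plin2, Thrsp and Fasn, and the choice does not rank their differences. Dgat2 and Scd1 had no window, the Acacb window had no such part, and the Cidec windows are not shown. Capitals mark matches on either strand to CANNTG (the E-box) and CCAAT, and the last letters of the Plin2 stretch are the start of a CACGTG that runs past its end.
Plin1, chr7:79732904-79733026, minus strand: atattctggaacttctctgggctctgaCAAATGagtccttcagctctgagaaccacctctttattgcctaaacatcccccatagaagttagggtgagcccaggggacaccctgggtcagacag
Plin2, chr4:86670061-86670309, minus strand: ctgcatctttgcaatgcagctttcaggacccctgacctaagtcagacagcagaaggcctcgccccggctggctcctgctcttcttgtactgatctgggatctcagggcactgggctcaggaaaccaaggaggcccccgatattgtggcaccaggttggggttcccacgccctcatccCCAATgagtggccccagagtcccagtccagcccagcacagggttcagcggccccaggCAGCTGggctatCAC
Thrsp, chr7:97417731-97417800, minus strand: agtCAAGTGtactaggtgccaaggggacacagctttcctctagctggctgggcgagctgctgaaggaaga
Fasn, chr11:120824548-120824797, minus strand: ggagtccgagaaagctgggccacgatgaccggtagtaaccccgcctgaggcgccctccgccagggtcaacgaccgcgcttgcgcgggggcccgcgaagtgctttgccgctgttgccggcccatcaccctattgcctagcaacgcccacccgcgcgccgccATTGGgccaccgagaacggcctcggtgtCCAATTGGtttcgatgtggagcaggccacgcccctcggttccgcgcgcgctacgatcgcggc

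Over the whole windows the promoters differed in composition. The Fasn window had 39 CpG and 69.3% G and C, against medians of 7 CpG and 52.7% over 32851 promoters, whereas the Plin1 window had 2 CpG and 55.7%. CCAAT matched 3 times in the Fasn window, 2 times for Thrsp and 1 time each for Plin2 and Acacb, and 37.4% of all promoters held it. CANNTG matched for all 6 genes with a window and in 72.3% of all promoters. It matched at 3 places for Plin1, 2 each for Plin2 and Thrsp and 1 each for Acacb, Cidec and Fasn. Its palindromic form CACGTG, which CANNTG contains, matched for Plin2 and in 7.15% of promoters, and GGGCGG matched for Plin2 and in 35.7%. TTNCNNCAA (a C/EBP-type motif) matched for Thrsp and in 12.3% of promoters. TCNCNCCA matched for Cidec, at both of its start sites, and in 19.9%. The stricter sterol element TCACNCCAC (1.24% of promoters) and the direct repeat with a spacing of 1, in a strict form (0.0396%) and a loose form (0.801%), matched in none of the windows of these genes. A match is a stretch of letters and not a measured site.

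The libraries held 54462123 to 77284922 UMIs (unique molecular identifiers, counted transcripts) in 5134 to 7737 barcodes, and 3763 to 5058 cells were kept. Cells were clustered without the lipid genes and named from marker lists. The LepR+ stromal class had 1081 cells in the non-irradiated control library, 635 in the non-irradiated Vegfc-deleted, 422 in the irradiated control and 138 in the irradiated Vegfc-deleted library. It expressed all 10 LepR+ markers in every library, with a summed level of 30785 to 39909 CPM (UMIs per 1000000 UMIs of the class). Different clusters held it with and without irradiation: 1077 and 629 non-irradiated cells lay in a cluster led by Igfbp5, Mgp and Cxcl14, and 385 and 123 irradiated cells in a cluster led by Lpl, Slc5a3 and Fzd1. Vegfc in LepR+ cells measured 172 and 169 CPM in the control libraries and 18.1 and 25.9 CPM in the Vegfc-deleted ones. The 2 non-irradiated libraries shared 117 barcodes and other pairs 13 to 24, and leaving out every shared barcode changed no call of the 8 genes.

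Plin1 was the gene with the sharpest difference in LepR+ stromal cells. It had 0 UMIs in the non-irradiated control library, which allows up to 0.278 CPM, and 1 UMI (0.157 CPM) in the non-irradiated Vegfc-deleted library. After irradiation it had 204 UMIs (42.2 CPM, 36.6 to 48.4) in control and 85 UMIs (64.8 CPM, 51.8 to 80.2) in Vegfc-deleted cells. The irradiated libraries were thus far above the non-irradiated ones, and their own intervals did not overlap. In control mice the level was 152-fold the floor of 3 counts in the non-irradiated class, and the counting interval of the ratio had a lower end of 122-fold. In Vegfc-deleted mice the log2 ratio was 8.11 (6.17 to 14.01), with 1 UMI in the denominator, and 5.35 without doublet removal, which returns a non-irradiated barcode with 13 Plin1 UMIs to the data. Erythroid cells, which should lack the gene, had 0, 0, 1 and 0 Plin1 UMIs in the same order of libraries. A Plin1 UMI was seen in 45 of 422 irradiated control cells (10.7%, 7.89 to 14.01, exact binomial) and in 20 of 138 irradiated Vegfc-deleted cells (14.5%, 9.08 to 21.5), at median depths of 10351.5 and 8242 UMIs. After every cell was thinned to 1500 UMIs the shares were 3.57% and 5.07%, against 0% in both non-irradiated libraries. The 3 cells with most Plin1 held 25, 18 and 17 UMIs in the control library and 16, 13 and 13 in the Vegfc-deleted one, so the transcript came from a minority of cells.

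Plin2 was present without irradiation and was higher with it. LepR+ cells had 411 UMIs (38.2 CPM, 34.6 to 42.0), 258 (40.6 CPM, 35.8 to 45.9), 334 (69.1 CPM, 61.9 to 77.0) and 131 (99.9 CPM, 83.5 to 119) in the control and Vegfc-deleted libraries without and then with irradiation, an order used for all lists of 4 values below. The intervals of the non-irradiated pair overlapped, and both irradiated libraries lay above that pair and apart from each other. The log2 ratio of irradiated over non-irradiated was 0.86 (0.65 to 1.07) in control and 1.30 (0.98 to 1.61) in Vegfc-deleted mice. Plin2 was spread over more cells than Plin1, with a UMI in 28.1%, 30.2%, 42.9% and 43.5% of LepR+ cells and in 5.37%, 4.58%, 9.76% and 14.5% of them after thinning.

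Cidec was almost absent from LepR+ stromal cells, with 0, 0, 3 and 2 UMIs, each in a cell of its own. Its 1.53 CPM in the irradiated Vegfc-deleted library had an interval of 0.185 to 5.51 and overlapped those of the other libraries, so no difference was detectable at this depth within the class. This depended on which barcodes the class held: the log2 ratio of Vegfc-deleted over control with irradiation, 1.40, was 6.49 without doublet removal, 7.04 with at least 1000 genes per barcode and 6.68 with the lipid genes in the clustering. The irradiation ratio in Vegfc-deleted mice, 4.599, was 10.26 with at least 1000 genes.

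Dgat2, which adds the last fatty acid to triglyceride, had 48 UMIs (4.46 CPM, 3.29 to 5.91) and 23 (3.62 CPM, 2.29 to 5.43) without irradiation and 126 (26.1 CPM, 21.7 to 31.1) and 26 (19.8 CPM, 13.0 to 29.1) with it. The 2 irradiated libraries overlapped each other and lay above both others. The log2 ratios were 2.54 (2.06 to 3.06) in control and 2.45 (1.59 to 3.33) in Vegfc-deleted mice. Neutrophils also expressed Dgat2, and their 10 markers summed to 146, 620, 13135 and 11020 CPM in the LepR+ class. These markers came from few cells: 18 of 422 irradiated control cells, 3 of 138 irradiated Vegfc-deleted cells and 1 non-irradiated Vegfc-deleted cell had more than 1% of their UMIs in them, with a highest share of 29.9%. Without these cells Dgat2 stood at 4.46, 3.63, 25.8 and 19.4 CPM, and no call of the 8 genes changed. Per 1000 neutrophil marker UMIs there were 0.174 and 0.159 Dgat2 UMIs in irradiated neutrophils and 1.99 and 1.80 in irradiated LepR+ cells. Without irradiation the values were 0.166 and 0.152 in neutrophils and 30.6 and 5.84 in LepR+ cells. Erythroid cells had 0.433, 0.131, 1.89 and 0.567, each from 1 Dgat2 UMI.

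The fatty acid genes did not move together in LepR+ cells. Scd1 stood at 33.7 CPM (30.3 to 37.3, 363 UMIs), 38.1 (33.4 to 43.2, 242 UMIs), 48.7 (42.6 to 55.3, 235 UMIs) and 99.9 (83.5 to 119, 131 UMIs). Both irradiated libraries lay above the non-irradiated control, and the irradiated Vegfc-deleted library lay above all others. The log2 ratio with irradiation was 0.53 (0.29 to 0.77) in control mice, short of a 1.5-fold difference, and 1.39 (1.07 to 1.70) in Vegfc-deleted mice. With thinned cells these ratios were -0.10 and 0.69, and over the other alternatives the second reached 3.64 where the lipid genes were allowed in the clustering. In that last library 5 cells held 66.4% of the Scd1 UMIs, with 32 in the highest, and the share of cells with a UMI was close to the others at 25.4% against 20.5%, 24.3% and 21.8%.

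Thrsp was near background in non-irradiated LepR+ cells, with 5 UMIs (0.464 CPM, 0.151 to 1.08) and 7 (1.10 CPM, 0.443 to 2.27), and had 58 UMIs (12.01 CPM, 9.12 to 15.5) and 48 (36.6 CPM, 27.0 to 48.5) after irradiation. The irradiated libraries lay above the others and apart from each other. The log2 ratios were 4.57 (3.39 to 6.37) and 4.97 (3.90 to 6.44), over few cells: 14 of 422 and 7 of 138 cells had a UMI. In the irradiated Vegfc-deleted library 1 cell held 41 of the 48 UMIs, and without it the level was 5.34 CPM. The highest control cell held 20 UMIs, and without it the level was 7.87 CPM, so that the order of the genotypes turned. Sinusoidal endothelium was rich in Thrsp, and its 8 markers summed to 64.1, 60.7, 185 and 76.3 CPM in the LepR+ class. Per 1000 of these marker UMIs there were 18.3 and 32.1 Thrsp UMIs in irradiated endothelium and 64.9 and 480.0 in irradiated LepR+ cells, against 7.24 and 18.1 in non-irradiated LepR+ cells and 16.3 and 27.2 in non-irradiated endothelium.

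Fasn, the synthase itself, stood at 13.8 CPM (11.7 to 16.2, 149 UMIs), 14.5 (11.7 to 17.8, 92 UMIs), 20.9 (17.0 to 25.4, 101 UMIs) and 8.39 (4.19 to 15.0, 11 UMIs). The irradiated control had the highest value, with an interval that overlapped the non-irradiated Vegfc-deleted library, and the irradiated Vegfc-deleted library overlapped both non-irradiated ones. The log2 ratio with irradiation was 0.60 (0.22 to 0.97) in control and -0.73 (-1.84 to 0.12) in Vegfc-deleted mice. The second value rests on 11 UMIs and depended on which cells were in the class: it was 1.01 without doublet removal, 0.95 with at least 1000 genes per cell, 0.88 where the lipid genes were allowed in the clustering and 0.031 at a finer clustering. Acacb had 5, 10, 13 and 2 UMIs in LepR+ cells, at most 2.69 CPM (1.43 to 4.602), and its irradiated intervals overlapped each other. The log2 ratio with irradiation was 2.45 (0.96 to 4.38) in control and 0.21 (-3.28 to 2.19) in Vegfc-deleted mice, with too few UMIs for a call.

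**Figure D1:**
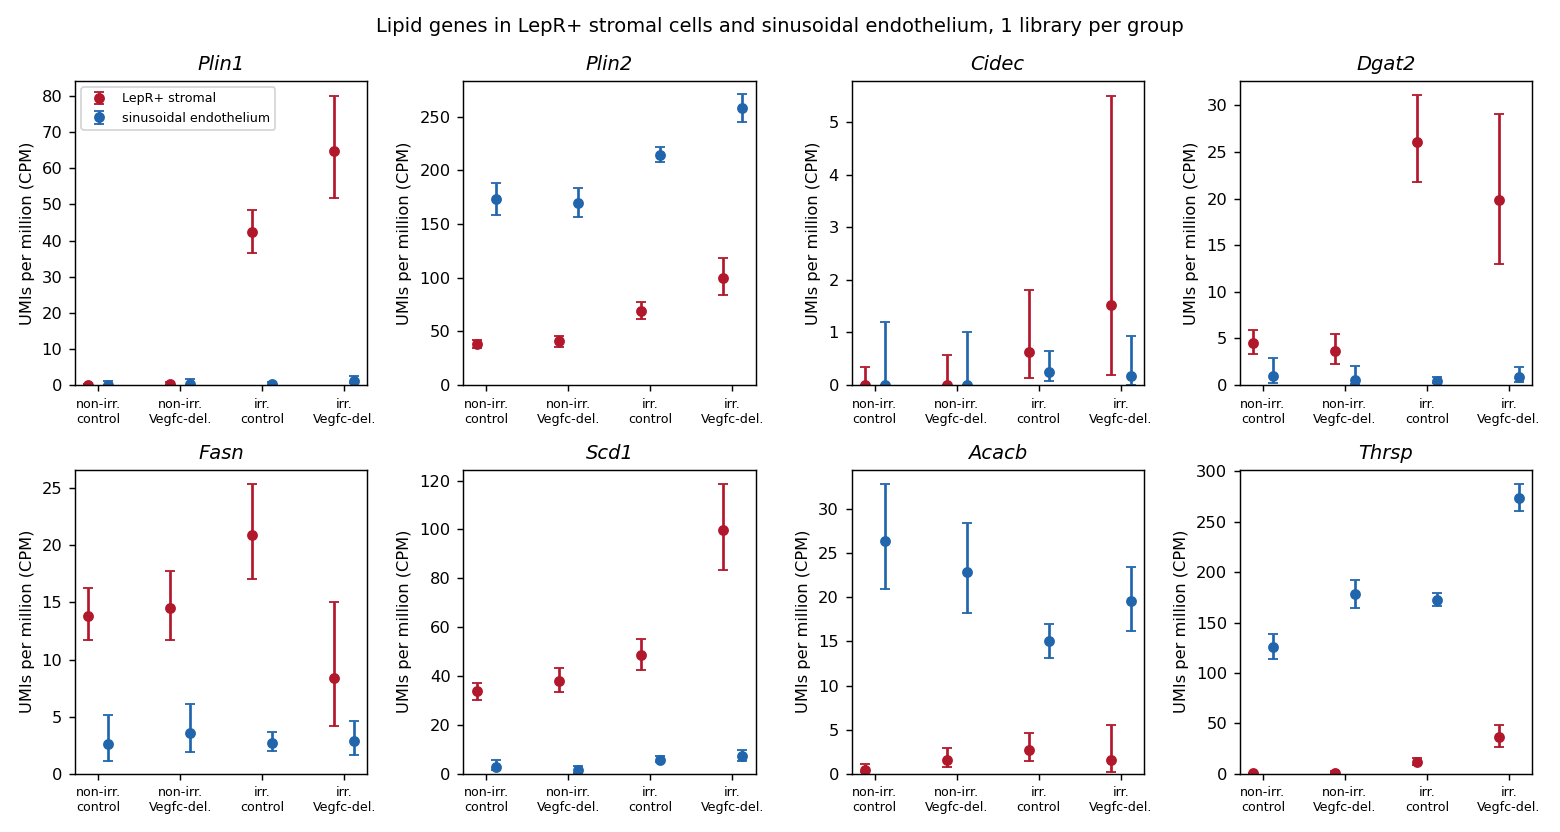
Level of each of the 8 genes in LepR+ stromal cells (red) and sinusoidal endothelium (blue) in the 4 libraries, in CPM, with exact Poisson 95% intervals as bars. Plin1 in LepR+ cells sits at 0 and 0.157 CPM without and at 42.2 and 64.8 CPM with irradiation, while Plin2, Acacb and Thrsp are higher in endothelium than in LepR+ cells in every library.

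Counted over genes with at least 30 UMIs in the 2 libraries compared, 5 of 6 members (Plin1, Plin2, Dgat2, Fasn and Thrsp) were at least 1.5-fold higher with irradiation in control LepR+ cells, where 20% of 12012 genes were. None was 1.5-fold lower, against 10.7% of genes. In Vegfc-deleted LepR+ cells 5 of 6 (Plin1, Plin2, Dgat2, Scd1 and Thrsp) were higher, against 19.3% of 10659 genes, and 1 (Fasn) was lower, against 10.8%. Cidec and Acacb had too few UMIs for either count. Plin1 (204 against 0 and 85 against 1 UMIs) and Thrsp (58 against 5 and 48 against 7) reached 30 UMIs only through the irradiated libraries. So did Dgat2 in Vegfc-deleted mice (26 against 23 UMIs), where 3.62 CPM in both libraries would give under 30 UMIs. The count minimum thus let these calls in only because the genes were higher in the irradiated libraries. They add nothing to the comparison with all genes. All genes together had a median log2 ratio of 0.17 in control and 0.16 in Vegfc-deleted mice, and -0.03 and -0.04 with TMM scaling. After thinning to 1500 UMIs, which leaves fewer genes past the count minimum, 2 members were higher in each genotype.

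**Figure D2:**
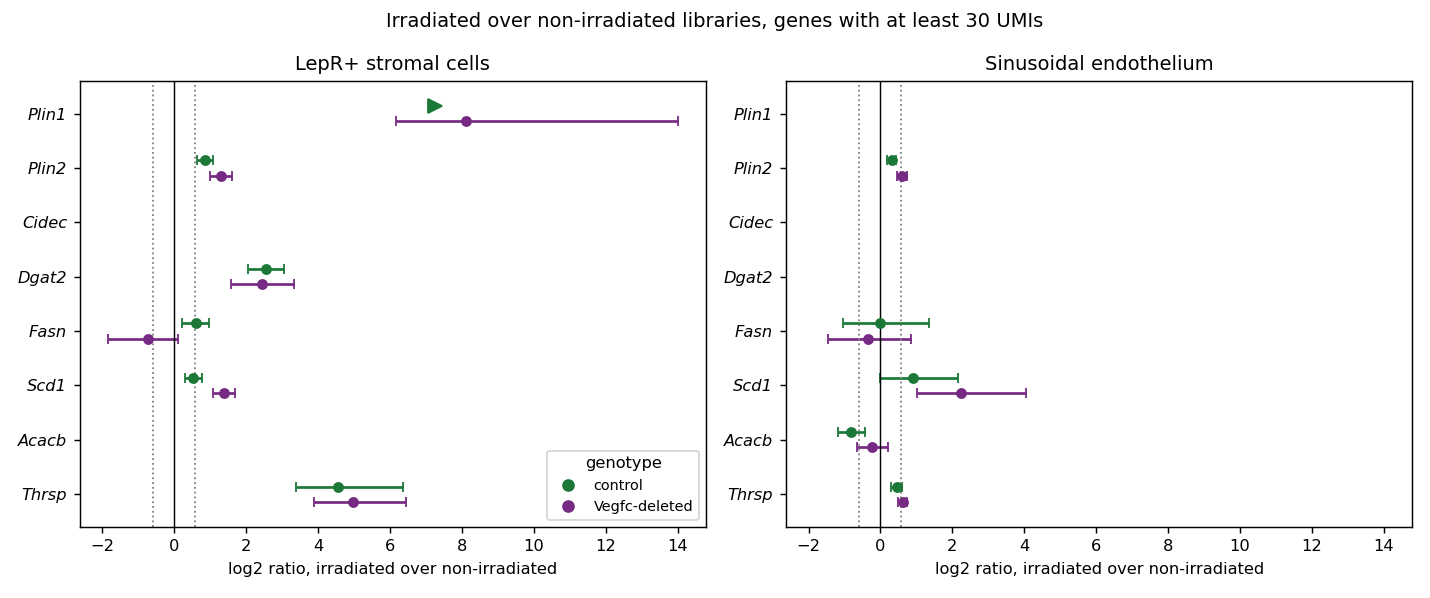
Log2 ratio of irradiated over non-irradiated libraries for members with at least 30 UMIs, in LepR+ stromal cells (left) and sinusoidal endothelium (right), for control (green) and Vegfc-deleted (purple) mice, with exact conditional 95% intervals and dotted lines at 1.5-fold. The triangle marks Plin1 against a floor of 3 counts where the non-irradiated library had 0 UMIs. Fasn is the LepR+ gene whose 2 ratios lie on opposite sides of 0 (0.60 and -0.73).

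The genotypes were compared next within each irradiation state. Without irradiation Plin2, Dgat2, Fasn and Scd1 could be counted in LepR+ cells and none differed by 1.5-fold, with log2 ratios of Vegfc-deleted over control of 0.09 (-0.14 to 0.32), -0.28 (-1.08 to 0.45), 0.07 (-0.33 to 0.45) and 0.18 (-0.06 to 0.42). Of all genes, 3.2% were higher and 5.23% lower by that fold. With irradiation Plin1 at 0.62 (0.24 to 0.99), Scd1 at 1.04 (0.72 to 1.35) and Thrsp at 1.61 (1.03 to 2.19) were higher in Vegfc-deleted cells, 3 of 6 members against 7.95% of genes. Fasn was lower at -1.26 (-2.37 to -0.42), 1 of 6 against 11.1%, and Plin2 at 0.53 (0.23 to 0.83) and Dgat2 at -0.37 (-1.06 to 0.22) did not reach the fold. The Plin1 ratio was 1.25 to 1.30 and the Scd1 ratio 2.88 to 3.18 without doublet removal, with at least 1000 genes, with the lipid genes in the clustering or with a low-depth cluster joined to the class. The Dgat2 ratio was 0.49 to 0.62 under these settings and 0.67 with thinned cells. The Thrsp ratio was -0.48 without the highest cell of each library and -0.27 with thinned cells. The Fasn ratio was 0.36 to 0.50 under the same settings that moved Plin1 and Scd1. The directions of Dgat2, Thrsp and Fasn are therefore not settled by the data. The Plin1 ratio kept its sign in 11 of 11 alternatives but was 0.20 with thinned cells, short of 1.5-fold, so its size is not settled either.

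Within the irradiated LepR+ class the 8 genes were uneven from cell to cell. The top 10% of cells held 52.8% of all member UMIs in the irradiated control and 65.6% in the irradiated Vegfc-deleted library, against 43.1% and 41.5% without irradiation. Cells with UMIs of at least 3 members were 12.1% and 16.7% of irradiated and 1.76% and 3.31% of non-irradiated LepR+ cells, or 0.952%, 0.725%, 0% and 0.158% in the same order after thinning. Cells with none of the 8 were 31.8% and 37.7% with and 48.9% and 46.8% without irradiation.

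Cells with a Plin1 UMI were then set beside the other irradiated LepR+ cells, as a description without a test, since Plin1 chose them. In the control library Thrsp stood at 75.8 CPM in the 45 cells with and 1.68 CPM in the 377 cells without Plin1, and 51 of its 58 UMIs came from the former. Scd1 was at 132 and 35.1 CPM, Dgat2 at 60.9 and 20.4, Fasn at 32.7 and 19.0, and Plin2 at 84.7 and 66.6. The Vegfc-deleted library, with 20 and 118 cells, had Thrsp at 163 and 2.90 CPM, Scd1 at 359 and 30.9, Dgat2 at 43.5 and 13.5 and Plin2 at 149 and 86.9, but Fasn at 7.25 and 8.69. The cells with Plin1 were deeper, with medians of 13363 and 10172 UMIs in control and 11539.5 and 7638.5 in Vegfc-deleted mice. They also differed in genes outside the 8. Car3, a carbonic anhydrase of fat cells, was at 5104 against 281 CPM in control and 3632 against 466 CPM in Vegfc-deleted mice. Fabp4, the fatty acid carrier of fat cells, was at 10594 against 1160 CPM and at 14921 against 1205 CPM. The lipase gene Lipe was at 60.9 against 9.62 and 76.1 against 4.83 CPM. Of the stromal genes, Adipoq was at 4107 against 2835 CPM and 3777 against 3337 CPM, whereas Lepr was at 1001 against 1635 CPM and 689 against 1227 CPM, and Cxcl12, present in every one of these cells, at 16351 against 22086.5 and 13370 against 18283 CPM. Ibsp, a bone matrix gene, was at 31.2 against 786 CPM and at 18.1 against 1329 CPM, and Mgp at 8.91 against 267 and 50.8 against 188 CPM.

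**Figure D3:**
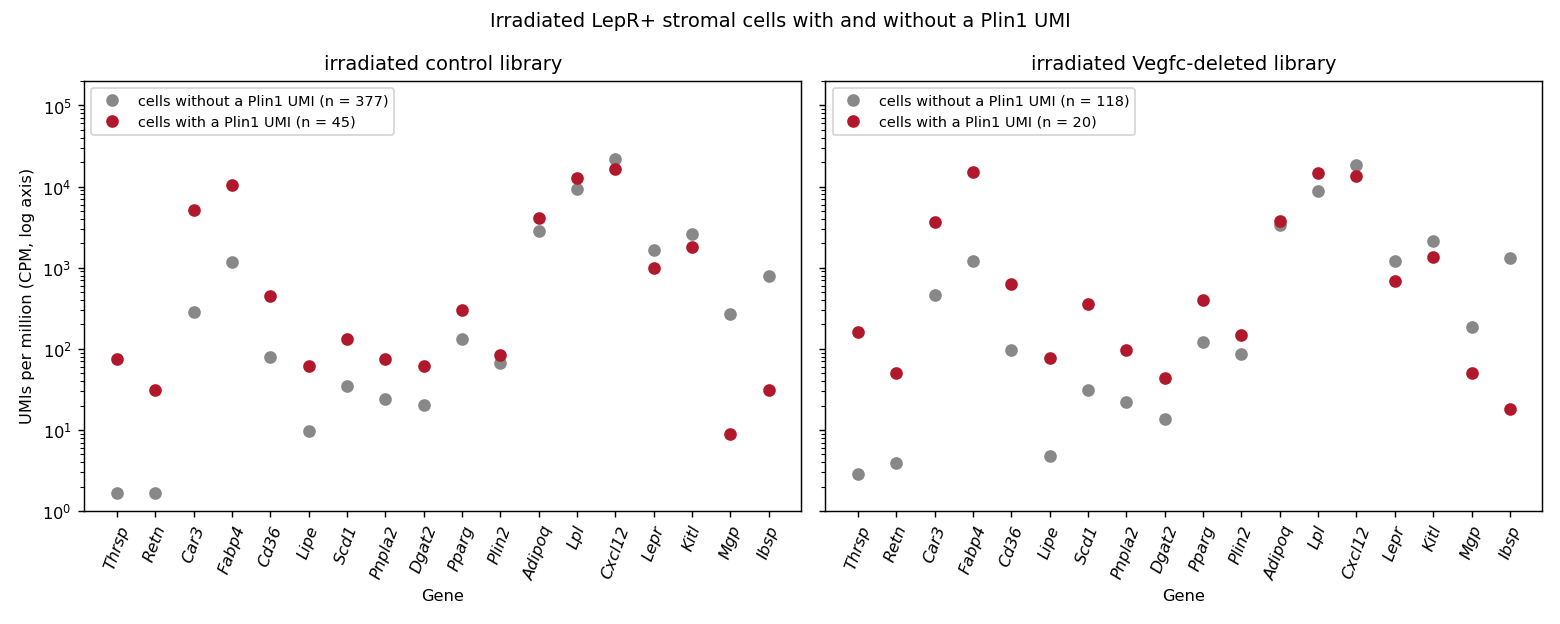
Levels of 18 genes, in CPM on a log axis, in irradiated LepR+ stromal cells with (red) and without (grey) a Plin1 UMI, for the control (left) and Vegfc-deleted (right) library. Thrsp, Retn, Car3 and Fabp4 are higher in the cells with Plin1 in both libraries, and Ibsp and Mgp are lower.

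Markers of mature fat cells were only partly present in the class. Of 12 such markers, 9 were detected in irradiated control and 8 in irradiated Vegfc-deleted LepR+ cells, against 8 and 7 without irradiation, and their summed level was 35.2, 45.2, 1124 and 1316 CPM. Car3 alone made up most of it, and without Car3 the sums were 32.03, 33.05, 171 and 184 CPM. The hormone gene Lep and Pck1 had 0 UMIs in all 4 libraries, Cfd (adipsin) stood at 0.464, 0.787, 4.97 and 9.91 CPM, and Retn (resistin) had 0, 0, 28 and 18 UMIs. Part of the fat-cell list is thus also carried by LepR+ stromal cells, and whether any cell of the class was a fat cell was not tested.

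A cluster of low depth, left unnamed, held further member transcripts. It had 132, 124, 76 and 55 cells at a median of 0.275 times the depth of their library, all 10 LepR+ markers and leading genes that included Cfd, Mepe, Scd1, Spp1, Dmp1 and Cidec. In the irradiated Vegfc-deleted library it held 140 of 145 Cidec UMIs, 70 Plin1 UMIs and 587 Scd1 UMIs, against 0 Cidec and 0 Plin1 UMIs in both non-irradiated libraries. Of these, 136 Cidec, 37 Plin1 and 430 Scd1 UMIs came from 1 barcode. It also held 3141 of the cluster's 3142 Cfd UMIs in that library, and the cluster had 0, 0 and 2 Cfd UMIs in the other libraries. Without that barcode the cluster still had 33 Plin1 UMIs (179 CPM) and 157 Scd1 UMIs (851 CPM) in 54 cells, and 4 Cidec UMIs. In the irradiated control library it had 3 Plin1 and 32 Scd1 UMIs, of which 16 lay in 1 cell.

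Sinusoidal endothelium was the main site of Thrsp and Acacb. Of all UMIs in kept cells, it held 96.5%, 93.4%, 87.9% and 86.8% of Thrsp and 92.0%, 83%, 80.4% and 85.3% of Acacb, while it made up 6.2%, 7.0%, 36.8% and 16.7% of the cells. Different clusters held this class too: 286 and 326 non-irradiated cells lay in a cluster led by Sele, 8430408G22Rik and Rasgef1b, and 1359 and 670 irradiated cells in a cluster led by Stab2, Adgrg6 and Flt4, so irradiation ratios in endothelium mainly compare these 2 clusters. Thrsp stood at 126 CPM (114 to 139), 178 (165 to 192), 173 (166 to 179) and 274 (261 to 287), with a UMI in 59.2%, 62.6%, 69.3% and 78.0% of its cells against at most 0.410% of erythroid cells. The lowest library was the non-irradiated control, the highest the irradiated Vegfc-deleted one, and the other two overlapped. The log2 ratios with irradiation were 0.45 (0.30 to 0.61) in control and 0.62 (0.49 to 0.75) in Vegfc-deleted mice, and those of Vegfc-deleted over control 0.50 (0.32 to 0.69) without and 0.66 (0.57 to 0.75) with irradiation. Acacb went the other way with irradiation in control mice, from 26.4 CPM (21.0 to 32.8, 81 UMIs) to 15.0 (13.2 to 17.0, 238 UMIs), a log2 ratio of -0.82 (-1.19 to -0.43). In Vegfc-deleted mice it was at 22.9 (18.2 to 28.4, 83 UMIs) and 19.6 (16.2 to 23.5, 116 UMIs), and these intervals overlapped. Across 37 class and library pairs the levels of Acacb and Thrsp had a Pearson correlation of 0.93, a description over points that share libraries and in which endothelium sets the high values.

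Plin2 was also high in endothelium, at 173 CPM (158 to 188), 169 (156 to 183), 214 (207 to 222) and 258 (245 to 271), and 74.0% to 84.3% of its cells had a UMI. Both irradiated libraries lay above the non-irradiated pair, whose intervals overlapped. The log2 ratios were 0.31 (0.18 to 0.45) in control and 0.61 (0.47 to 0.75) in Vegfc-deleted mice. Scd1 had 9, 5, 92 and 42 UMIs there, at most 7.09 CPM, with ratios of 0.91 (-0.01 to 2.16) and 2.24 (1.03 to 4.06). Fasn stayed between 2.61 and 3.59 CPM with overlapping intervals. Plin1 had 0, 1, 6 and 7 UMIs, Cidec 0, 0, 4 and 1 and Dgat2 3, 2, 7 and 5, so that endothelium showed no Plin1 or Dgat2 level like that of irradiated LepR+ cells.

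Counted as above, 1 of 5 members (Scd1) was 1.5-fold higher and 1 (Acacb) lower with irradiation in control endothelium, where 18.1% and 8.78% of genes were. In Vegfc-deleted endothelium 3 of 5 (Plin2, Scd1 and Thrsp) were higher, against 15.2%, and 0 lower, against 8.43%. Scd1 there had 42 UMIs with and 5 without irradiation, and 1.38 CPM in both libraries would have left it below the count minimum. The count minimum thus let this Scd1 call in only because the gene was higher in the irradiated library. That call adds nothing to the comparison with all genes. Between genotypes 0 of 3 differed without irradiation, against 5.3% higher and 4.83% lower, and 1 of 5 (Thrsp) was higher with it, against 3.77%, with 0 lower against 5.98%. Plin2 and Thrsp lay close to the 1.5-fold line in Vegfc-deleted mice, with folds of 1.52 and 1.54, and with TMM scaling 1 of 5 members was higher there.

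Each gene had its own order of cell classes. In neutrophils, in monocytes and macrophages and in B-lineage cells the mix of clusters also differed with irradiation. Plin2 was highest in monocytes and macrophages of the irradiated libraries, at 421 and 271 CPM against 96.8 and 182 CPM from 13 and 61 UMIs without irradiation, log2 ratios of 2.07 (1.34 to 3.04) and 0.57 (0.21 to 0.97). A cluster led by Cd5l and Fcna held 35 and 67 of the non-irradiated and 83 and 236 of the irradiated cells, and one led by C1qb and C1qa 3 and 18 against 54 and 362. Endothelium came next, with an interval that overlapped theirs in the irradiated Vegfc-deleted library, and neutrophils had 67.0, 55.3, 99.3 and 103 CPM. Dgat2 was highest in neutrophils, at 27.2, 39.2, 58.8 and 53.3 CPM, with log2 ratios for irradiation of 1.10 (0.70 to 1.53) and 0.44 (0.26 to 0.62). Control neutrophils without irradiation lay mostly in clusters led by Il1b and by Elane (75 and 51 cells), and those with irradiation mostly in clusters led by Gm5483 and by Chil3 (79 and 48 cells). In control mice its level in irradiated LepR+ cells was thus below that of neutrophils, whereas 40.8% of the library's Dgat2 UMIs lay in LepR+ cells and 46.9% in neutrophils. Scd1 had its highest values among named classes in osteolineage cells of the irradiated libraries, at 124 and 114 CPM in 123 and 73 cells, the second of which overlapped the LepR+ class, with a genotype log2 ratio of -0.12 (-0.32 to 0.08). These cells were too few to measure without irradiation (7 and 12). In a B-lineage cluster of 87 cells, 78 of them from the non-irradiated Vegfc-deleted library, Scd1 was at 469 CPM in those 78. In an unnamed cluster led by Gm15915, C1qtnf12 and Mthfd1, Fasn was at 23.3, 33.8, 73.2 and 59.2 CPM, above its value in every named class of the same library. In B-lineage cells Fasn was at 10.7 CPM in non-irradiated and 33.6 CPM in irradiated control mice, a log2 ratio of 1.63 (1.18 to 2.13). The former lay mostly in clusters led by Vpreb1 and by Ly6d (391 and 292 cells) and the latter in one led by Myl10 (289 cells).

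**Figure D4:**
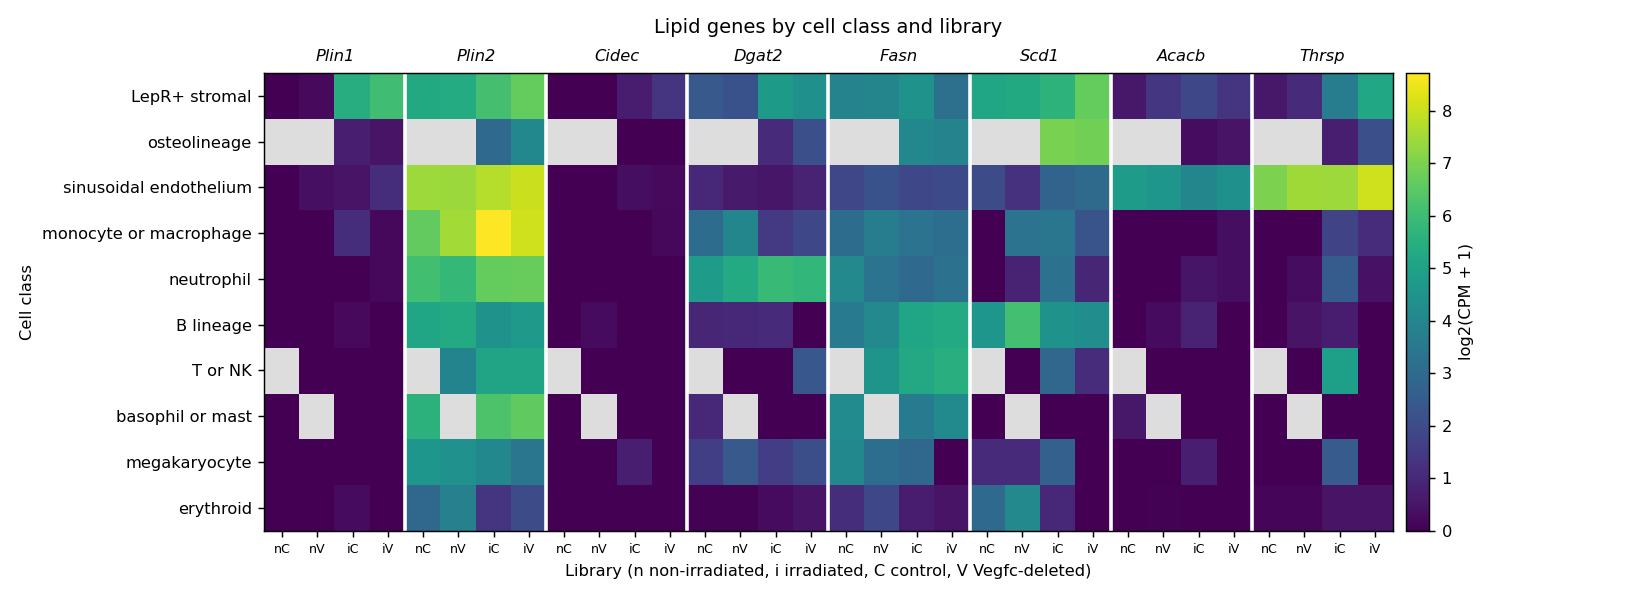
Levels of the 8 genes as log2(CPM + 1) in 10 cell classes (rows) and 4 libraries (columns within each gene), with grey where a class had fewer than 20 cells. Plin1 stands out in irradiated LepR+ cells, Thrsp and Acacb in endothelium, Plin2 in endothelium and in monocytes and macrophages, Dgat2 in neutrophils and irradiated LepR+ cells, and Scd1 in irradiated osteolineage cells.

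Genes with the most similar profile over the same 37 points were found for each member. Plin1 was nearest to Arxes2 (Pearson r = 0.99), Adrb3 (0.94), the adrenergic receptor of fat cells, and Shisa2 (0.93). Only irradiated LepR+ cells had more than 1.21 CPM of Plin1, at 42.2 and 64.8 CPM, so those points set its correlations. Cidec shared Arxes2 (0.83) and was nearest to Cxcl13 (0.87). Its level at these points was at most 1.53 CPM, from 2 UMIs, so both values rest on single counts near the floor. Of its 155 UMIs in kept cells, 136 lay in 1 barcode outside these points. Dgat2 was nearest to the neutrophil genes Mmp8 (0.93), Crispld2 (0.93) and Cd177 (0.91), Scd1 to Ankrd6 (0.90) and the osteoblast phosphatase gene Alpl (0.88), Thrsp to Spaar (0.98), Pxdn (0.97) and Igfbp2 (0.97), and Acacb to Gm32688 (0.99) and Crygn (0.98). Plin2 was nearest to Pgap2 (0.89) and Fasn to Psph (0.85). These values describe 4 libraries and carry no test.

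The other genes of lipid storage and use came from 7 lists with 94 genes and were read in LepR+ cells with the same rule. Their counts stand against 20% of all genes higher and 10.7% lower with irradiation in control mice, and 19.3% and 10.8% in Vegfc-deleted mice. Of lipolysis genes, 4 of 7 were higher with irradiation in control mice and 6 of 7 in Vegfc-deleted mice, with 0 lower, and the list medians were 1.03 and 1.64. Aqp7, the glycerol channel, had log2 ratios of 3.11 and 2.33 in control and Vegfc-deleted mice. Lipe (hormone-sensitive lipase) had 1.61 and 2.12, Pnpla2 (the first lipase of the droplet) 1.15 and 1.64, and its inhibitor G0s2 1.03 and 1.53. Of other droplet proteins 2 of 7 were higher in both genotypes, near the share of all genes, with 0 and 1 lower: Fitm2, which partitions triglyceride into droplets, at 1.91 and 1.65, and Bscl2 (seipin) at 0.60 and 0.65. For triglyceride synthesis 5 of 11 and 3 of 9 were higher and 1 and 0 lower, with Dgat1, the second enzyme with the activity of DGAT2, at 2.09 and 2.01 in both counts.

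Of the other fatty acid synthesis genes, 4 of 14 were higher in control, near the share of all genes, and 8 of 14 in Vegfc-deleted mice, with 0 and 1 lower. Acsl1, which activates fatty acids, had 1.38 and 1.68, Me1 (malic enzyme, a source of NADPH) 1.29 and 1.61, Acaca, the cytosolic partner of Acacb, 0.83 and 0.71, and the elongase gene Elovl6 0.65 and 0.78. Among 9 regulators 2 and 3 were higher and 1 lower: Mlxipl, the carbohydrate-responsive factor ChREBP, had 2.68 and 1.90, and Insig1, the sterol sensor, -0.62 and -0.76. Fatty acid oxidation genes were higher in 6 of 13 and 5 of 13 cases and lower in 0, with Cpt2 at 0.87 and 1.39, Acaa2 at 0.68 and 1.41, Acadm at 0.75 and 0.59 and Etfdh at 0.59 and 0.77. Cholesterol synthesis had 0 genes higher and 3 of 13 and 4 of 12 lower, against the 10.7% and 10.8% of all genes. Fdps had -1.17 and -1.72, and Sqle -0.69 and -1.17. Over the 7 lists 71 genes could be read in both genotypes, of which 16 were 1.5-fold higher and 4 lower in both, against 9.03% and 5.31% of 10648 genes, and 0 went in opposite directions by that fold.

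**Figure D5:**
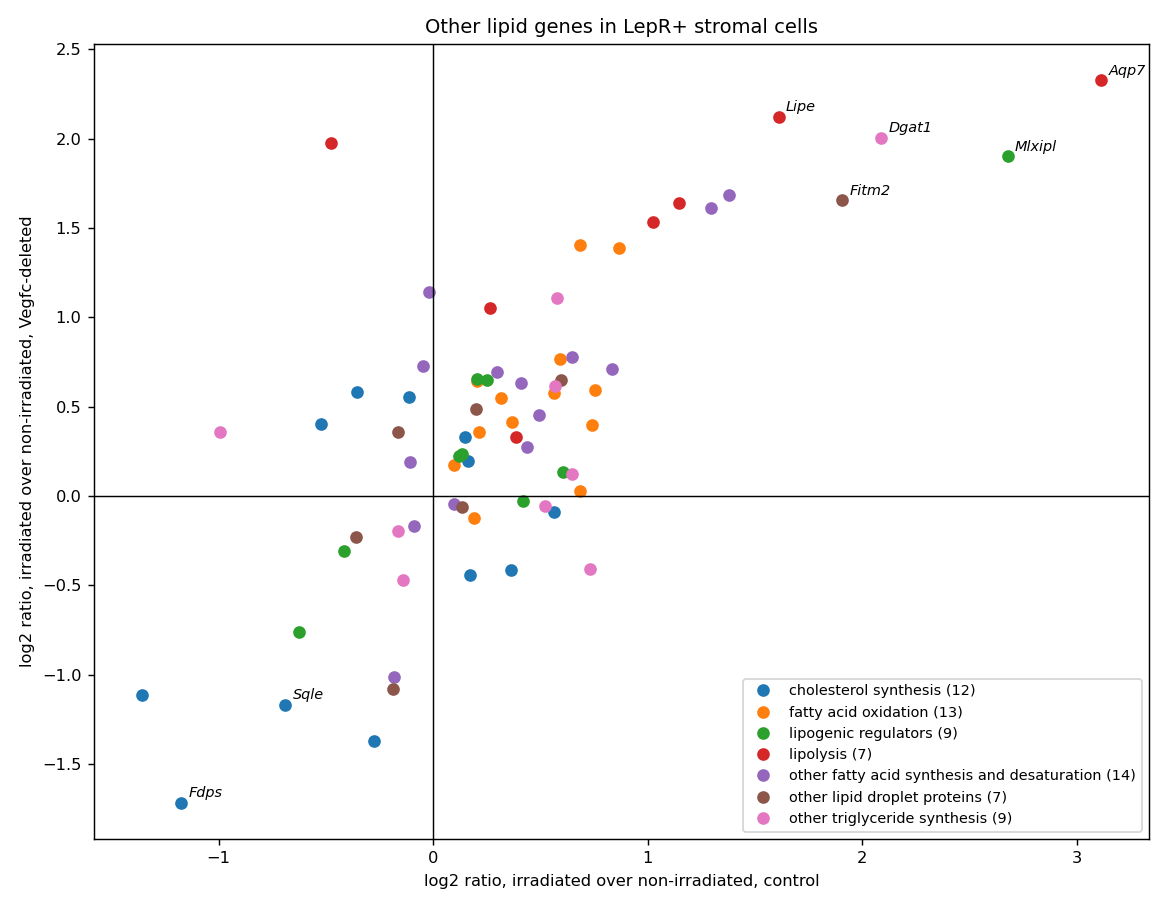
Log2 ratio of irradiated over non-irradiated LepR+ stromal cells in control (horizontal) and Vegfc-deleted mice (vertical) for 71 genes of 7 lipid lists with at least 30 UMIs in each comparison, 1 point per gene. Aqp7, Mlxipl, Dgat1, Lipe and Fitm2 lie above 1.5 in both, and Fdps and Sqle lie low in both.

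Without irradiation the genotypes differed little on these lists in LepR+ cells, with at most 1 member per list past 1.5-fold, all higher (3.2% of all genes were): Aqp7, Lpin1, Fads2 and Mlxipl. With irradiation 2 of 7 lipolysis genes (Mgll and Abhd5) and 2 of 10 triglyceride genes (Agpat4 and Gpd1) were higher in Vegfc-deleted cells. So were 2 of 14 fatty acid synthesis genes (Acss2 and Mcat) and 2 of 12 cholesterol genes (Cyp51 and Mvk), against 7.95% of all genes. In each of these last lists 1 gene was lower (Mid1ip1 and Fdft1), against 11.1% of all genes. No list held more than 2 genes in either direction. In endothelium 2 of 5 lipolysis genes (Lipe and Lipa) were higher with irradiation in each genotype, and 1 (Abhd5) was lower in control mice. Of all genes there, 18.1% and 15.2% were higher and 8.78% and 8.43% lower. Cholesterol synthesis had 1 gene higher in each genotype and 5 of 13 lower in control and 3 of 11 in Vegfc-deleted mice, with Fdps and Cyp51 among those lower in both.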

How the data were processed

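RNA of sorted mouse marrow cells was captured with 10x Chromium 3' v3.1 chemistry and sequenced on a NovaSeq, per the labels. The deposited values are raw UMI counts per feature and barcode, made by the authors with Cell Ranger 2.1.1 on mm10 per the submitters' processing notes. The header of the matrices instead gives 3.1.0 as its software version. The barcodes and the feature list were deposited as names, without a unit. The count of a 3' tag does not depend on transcript length.

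Barcodes with under 500 genes or over 10% mitochondrial UMIs, and Scrublet doublets (0.8% per 1000 barcodes; 444, 479, 212 and 211), were left out. The rest were clustered together (scanpy 1.11.5, leidenalg 0.10.2, 2000 variable genes, 40 components, 20 neighbours, resolution 1) with 102 lipid genes left out of the variable genes, which gave 30 clusters. A marker list named a cluster where its score reached 2, its lead over the next list 1 and its detected markers 3. Clusters short of this, or against the rules on depth and leading genes, stayed unnamed (329, 581, 400 and 484 cells). Names are rebuilt and may differ from the study's.

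UMIs were summed per class and library and divided by the class total (CPM). Ratios used a prior of 0.5 counts. Genes with at least 30 UMIs over both libraries were called at 1.5-fold. With 1 library per group no test was run. Intervals (95%) are exact Poisson for levels, exact binomial for shares and exact conditional for ratios, and a level of 0 allows 3 counts. Fewer cells of a kind and less RNA per cell were not separated within a class. Ratio and interval code was tested on simulated data.

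The 8 genes and all lists were chosen with earlier results of these data known. Named genes were the 8 members and, from each list, up to 4 genes higher and 4 lower that passed 1.5-fold in the same direction in both genotypes in LepR+ cells, ranked by the ratio nearer to 0. Some genes that these rules pick are not reported here. Genes beside Plin1 in single cells, and the list genes named between genotypes and in endothelium, were chosen after their values were seen. Profiles were compared on log2(CPM + 10) for genes with at least 300 UMIs. Alternatives were TMM factors (edgeR 4.0.16), thinning to 1500 UMIs, no doublet removal, at least 1000 genes, resolution 2, lipid genes kept in the clustering, a 2-fold call, no count minimum and a prior of 2. After the data were seen, 4 were added: leaving out the highest cell of each member, shared barcodes or cells above 1% neutrophil markers, and joining the low-depth cluster to the LepR+ class.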

Additional observations from a re-analysis of the deposited data

Results flagged for a closer look

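Most Cidec UMIs lay in 3 single barcodes that belong to no compared class, each of which held 3 or more. Over all barcodes, Cidec had 0 UMIs in the control and 22 in the Vegfc-deleted library without irradiation, and 12 and 157 with it. The first barcode, a kept cell of the irradiated Vegfc-deleted library in the unnamed low-depth cluster, held 136 Cidec UMIs among 63028 UMIs of 6701 genes, with 9.30% mitochondrial UMIs. It also held 37 Plin1, 430 Scd1, 95 Thrsp, 24 Fasn, 23 Plin2 and 10 Dgat2 UMIs. Of fat-cell transcripts it had 4102 Fabp4, 3141 Cfd, 723 Car3, 173 Adipoq, 59 Plin4, 33 Retn and 1 Lep UMIs, and of stromal ones 0 Lepr and 1 Cxcl12 UMI. The second, in the non-irradiated Vegfc-deleted library, held 21 Cidec, 13 Plin1, 13 Thrsp, 45 Scd1, 980 Cfd and 80 Adipoq UMIs beside 30 Cxcl12 UMIs and had been removed as a doublet with a score of 0.418. The third, in the irradiated Vegfc-deleted library, failed the filters at 43.4% mitochondrial UMIs and held 3 Cidec, 86 Scd1 and 54 Cfd UMIs. The non-irradiated control library had 0 Cidec UMIs in any barcode. All 3 barcodes were in Vegfc-deleted libraries, and whether that goes with genotype cannot be told apart from 1 pooled preparation per group.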

How the results depend on the processing

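No paired analysis was possible because each group was 1 library and the labels give no replicate numbers. Of 638 values for single genes, 594 kept their sign and 44 changed it. Of the changes, 11 were of values past 1.5-fold and 33 of values that were not called. Values stayed within the counting interval of the reported one in 574 cases, some with a change of sign. Counts of members were the same in 161 cases and moved in 39. Leaving out shared barcodes or cells with neutrophil transcripts moved none of them.

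Reversals of called values concerned Fasn and Thrsp in LepR+ cells. Among uncalled ones, the irradiated Dgat2 genotype ratio (-0.37) reached 0.67 thinned. The Fasn irradiation ratio in Vegfc-deleted mice (-0.73) was 1.01 without doublet removal, 0.95 with at least 1000 genes, 0.031 at resolution 2, 0.88 with lipid genes in the clustering and 0.88 with the low-depth cluster joined. Its irradiated genotype ratio (-1.26) was 0.50 without doublet removal, 0.37 with at least 1000 genes, 0.36 with lipid genes in the clustering and 0.36 with the cluster joined. The irradiated Thrsp genotype ratio (1.61) was -0.27 thinned and -0.48 without the highest cells. In the irradiated Vegfc-deleted library the joined cluster held 29 Fasn UMIs, 24 of them in 1 barcode, against 11 in the LepR+ class. The cause of the reversals was not tested.

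In LepR+ cells, members higher with irradiation in control mice (5) were 2 thinned and 3 at 2-fold. In Vegfc-deleted mice those higher (5) were 2 thinned, and the 1 lower was 0 thinned, without doublet removal, with at least 1000 genes, at resolution 2, with lipid genes in the clustering, at 2-fold, with a prior of 2 and with the cluster joined. Between non-irradiated genotypes those higher (0) were 1 without doublet removal and 3 without a count minimum. Between irradiated genotypes those higher (3) were 6 without doublet removal, 5 with at least 1000 genes, 5 with lipid genes in the clustering, 5 with the cluster joined and 1 without the highest cells, and the 1 lower was 0 in the first 4 of these and thinned, and 2 without the highest cells.

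In endothelium, members higher with irradiation in control mice (1) were 0 without doublet removal, 0 at 2-fold and 3 without a count minimum, and the 1 lower was 0 at 2-fold and 2 without a count minimum. In Vegfc-deleted mice those higher (3) were 1 with TMM, 1 thinned, 1 at 2-fold and 5 without a count minimum. Between non-irradiated genotypes those higher (0) were 1 thinned and 1 without a count minimum, and those lower (0) were 1 without doublet removal and 2 without a count minimum. Between irradiated genotypes those higher (1) were 0 at 2-fold and 3 without a count minimum. Thinning and the 2-fold call leave fewer genes past the rule by construction.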
